A study of Mus musculus with 4 samples.

Results

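The replication-dependent histone genes were followed in bone marrow of mice without functional TLR9 (TLR9-/-, 2 animals) and of WT mice (2 animals). A gene was taken as a member when its symbol in the deposited gene list began with Hist1h, Hist2h, Hist3h or Hist4h and at least 1 unique molecular identifier (UMI, the tag that marks 1 captured molecule) had been assigned to it over the 4 libraries. This rule gave 66 members of 67 such symbols, out of 20307 genes with a UMI. The remaining symbol, Hist1h2ba, had 0 UMIs in 186757666, which allows up to 0.0161 CPM (UMIs per 1000000 UMIs counted). The members together held 322637 UMIs, or 0.173% of all UMIs.

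The samples were bone marrow mononuclear cells of C57BL/6 mice, flushed from femur and tibia and separated over Ficoll. For its osteoclast assay, the study kept flushed cells overnight with the growth factor M-CSF and removed adherent cells before this separation. Its single-cell methods do not say whether that step was used here. The TLR9-/- mice carry a disrupted gene for the DNA-sensing Toll-like receptor 9 on both alleles, with no restriction to a cell type given, and the WT mice carry the intact gene. According to the study's methods the genotypes were bred in separate cages. No treatment is given for these mice. Each library came from 1 mouse, was made with a droplet kit that reads the 5′ end of the transcript, and was counted against mm10. The age of these mice is not given in the sources used here. Values of the 4 libraries are always given in the order TLR9-/- 1, TLR9-/- 2, WT 1 and WT 2. P-values between cell states or classes of the same libraries measure how evenly a difference recurs over the 4 libraries. P-values between genotypes measure the spread between these 4 mice only. The smallest p of an exact permutation test in this design is 0.33.

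Histone proteins package DNA into nucleosomes, whose core is built from H2A, H2B, H3 and H4, while linker histones of the H1 family bind where the DNA enters and leaves the core. The canonical histone genes lie in clusters, mostly without introns, and are transcribed mainly in S phase, when the newly copied DNA needs to be packaged. Their mRNAs usually end in a conserved stem-loop in place of a poly(A) tail, and the stem-loop binding protein Slbp governs their processing, translation and decay. Reverse transcription in this kit starts from poly(A). The values below therefore count those histone transcripts that were captured by such priming, and the captured share was not tested.

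The stem-loop is shown here because it defines the family. In GENCODE transcript models of GRCm38 (the build of mm10), a match to it was found in 44 of the 67 listed genes, followed by 3 to 4884 bases to the end of the longest model. The models of 21 genes ended within 100 bases after the stem-loop and 23 genes were counted as reaching further. Among these 23, Hist1h2bp had only 38 bases after its stem-loop. It was counted for another model, without a match, that ended at a poly(A) signal. Of the 23 genes without a match, 4 had a model that ended at a poly(A) signal, and 19 had neither a stem-loop nor such a signal at the end. Some of these models are short, with 381 bases in Hist1h2bl and 312 in Hist1h4k. A missing match thus describes the model and need not describe the transcript. The sequences of 8 members that recur below follow, read 5′ to 3′ on the strand of the gene, with the stem-loop in capitals.
Hist1h2ap (chr13:21833026-21833049, minus strand): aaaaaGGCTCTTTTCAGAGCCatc
Hist1h2ae (chr13:23570663-23570688, minus strand): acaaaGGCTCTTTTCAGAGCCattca
Hist1h1e (chr13:23621777-23621802, minus strand): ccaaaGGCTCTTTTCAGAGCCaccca
Hist1h1c (chr13:23739507-23739532, plus strand): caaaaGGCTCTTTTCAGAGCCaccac
Hist1h2ac (chr13:23683472-23683497, minus strand): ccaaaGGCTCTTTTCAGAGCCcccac
Hist2h2ac (chr3:96220413-96220438, minus strand): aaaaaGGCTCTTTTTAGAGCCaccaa
Hist1h3g (chr13:23535884-23535909, plus strand): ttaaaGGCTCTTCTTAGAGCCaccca
Hist1h4i (chr13:22040961-22040986, minus strand): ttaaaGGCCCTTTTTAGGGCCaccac
The form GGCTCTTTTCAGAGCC was held by 26 genes of the H1, H2A, H2B and H3 families, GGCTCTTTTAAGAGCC by 6 genes, and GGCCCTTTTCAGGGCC by 7 genes, all of the H4 family.

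In several members the annotated transcript runs past the stem-loop to a poly(A) signal, which is shown in capitals for those that stand apart below. The stem-loop lay 151 bases before the end of the model in Hist1h2ae, 840 bases in Hist1h1c and 330 bases in Hist1h4i.
Hist1h2ae (chr13:23570529-23570554, minus strand): cagcttctccAATAAAtgggtcaatt
Hist1h1c (chr13:23740332-23740357, plus strand): gtatgcttctAATAAAaagcgtttag
Hist1h4i (chr13:22040641-22040666, minus strand): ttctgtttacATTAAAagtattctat
Hist3h2a (chr11:58956787-58956812, plus strand): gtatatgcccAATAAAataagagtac
Hist3h2ba (chr11:58949497-58949522, plus strand): taatggtattAATAAAtttggttcaa

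Of the 67 listed genes, 54 lie on chromosome 13, 10 on chromosome 3, 2 on chromosome 11 and 1 on chromosome 6. On chromosome 13 they extend from position 21715763 to 23934851. Copies of the same family are nearly identical over long stretches. Of the members, 25 shared more than 50% of their windows of 100 bases with another gene, among them Hist1h2ap with 92.2% and Hist1h2bl with 62.1%. How reads were divided among such copies is not given in the sources used here, so the value of these members is uncertain.

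After filtering, the libraries held 10781, 8918, 10573 and 8895 cells with 50204578, 63958243, 31210188 and 41384657 UMIs. Histone UMIs made up 0.163%, 0.131%, 0.218% and 0.215% of the total, shares that include the mix of cell types in each library. Between 118 and 203 cell barcodes were shared by any 2 libraries, at most 1.83% of a library. The disrupted gene Tlr9 had 41, 48, 120 and 97 UMIs, or 0.817, 0.750, 3.84 and 2.34 CPM. Which part of Tlr9 is deleted is not given in the sources used here, so remaining UMIs do not check the labels fully. The WT 2 library stood apart, since 83.0% of its cells held a histone UMI against 66.1%, 64.1% and 65.5% in the others. In non-cycling T cells, resting cells that need little new histone, 61.9% of WT 2 cells held a histone UMI when every cell was reduced at random to 2000 UMIs, against 32.7%, 30.5% and 42.6%. The share of RNA from outside the cells in these values was not tested, and results of named members are given with and without WT 2 where it changes them.

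Cells were assigned to classes by marker genes, without clustering, so that histone genes did not take part. The largest class was the B lineage with 14701 cells, in which the B-cell receptor component Cd79a was detected in 97.4% of cells against 6.68% of all other named cells. Neutrophil lineage cells numbered 5429 (the granule protein Camp in 78.3% against 16.9%), monocyte lineage cells 4149 (the growth factor receptor Csf1r in 46.7% against 3.56%) and erythroid cells 3620 (Hemgn in 75.7% against 1.21%). Granulocyte-monocyte progenitors (GMPs) numbered 2781 (myeloperoxidase, Mpo, in 99.2% against 5.18%). A cell was called cycling with at least 2 UMIs on the proliferation genes Mki67, Top2a and Birc5 together, and non-cycling with 0. Deeper cells pass this limit more often, which is why the same comparisons were repeated on cells reduced to 2000 UMIs.

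In every lineage with enough cells, the summed histone level was several times higher in cycling than in non-cycling cells. In cycling B lineage cells it was 3891, 3539, 4660 and 4639 CPM, against 610, 395, 701 and 1092 in non-cycling ones. The ratio was 6.56 ± 1.93 (SD, n = 4 libraries), and the ranges of the states did not overlap. Monocyte lineage cells had a ratio of 7.57 ± 1.21, neutrophil lineage cells 6.25 ± 2.80, GMPs 3.62 ± 0.821 and erythroid cells 4.21 ± 1.87. The plasmacytoid dendritic cells (pDCs), which produce type I interferon, had the largest ratio of the 6 classes, at 12.3 ± 4.20. Since all of these are CPM of summed cells, a higher level in more cells and a higher level per cell are both included.

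The order of the classes by the mean level in cycling cells was B lineage (4182 ± 558 CPM, SD, n = 4 libraries), pDCs (3787 ± 577), monocyte lineage (3015 ± 431), erythroid cells (2291 ± 412), neutrophil lineage (1778 ± 300.1) and GMPs (1434 ± 310.2). Neighbours in this order overlapped in their ranges. The order is one of CPM and did not hold per cell between its ends. Mean histone UMIs per cycling cell were 18.5, 28.2, 23.7 and 27.0 in GMPs, against 20.9, 27.6, 17.3 and 26.1 in the B lineage. Median depth was 14162, 24466.5, 12862 and 17592 UMIs per cycling GMP, against 3814, 6003, 2804 and 4342 per cycling B lineage cell. B lineage cells lay above all libraries of monocytes, erythroid cells, neutrophils and GMPs, with the highest monocyte library at 3519 just below the lowest B lineage library at 3539. Within the B lineage, cycling pro-B and pre-B cells had 3708, 3473, 4482 and 4422, and cycling later B cells 4683, 3880, 4616 and 5421 CPM. Non-cycling cells of each of these classes lay lower. Among non-cycling classes with enough cells, basophils were the highest at 1152, 861, 1296 and 1707, and T cells had 249, 193, 294 and 633. WT 2 was the highest library in each of the 10 non-cycling classes with enough cells in every library. HSPCs (haematopoietic stem and progenitor cells), for example, had 605, 571, 412 and 811.

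**Figure D1:**
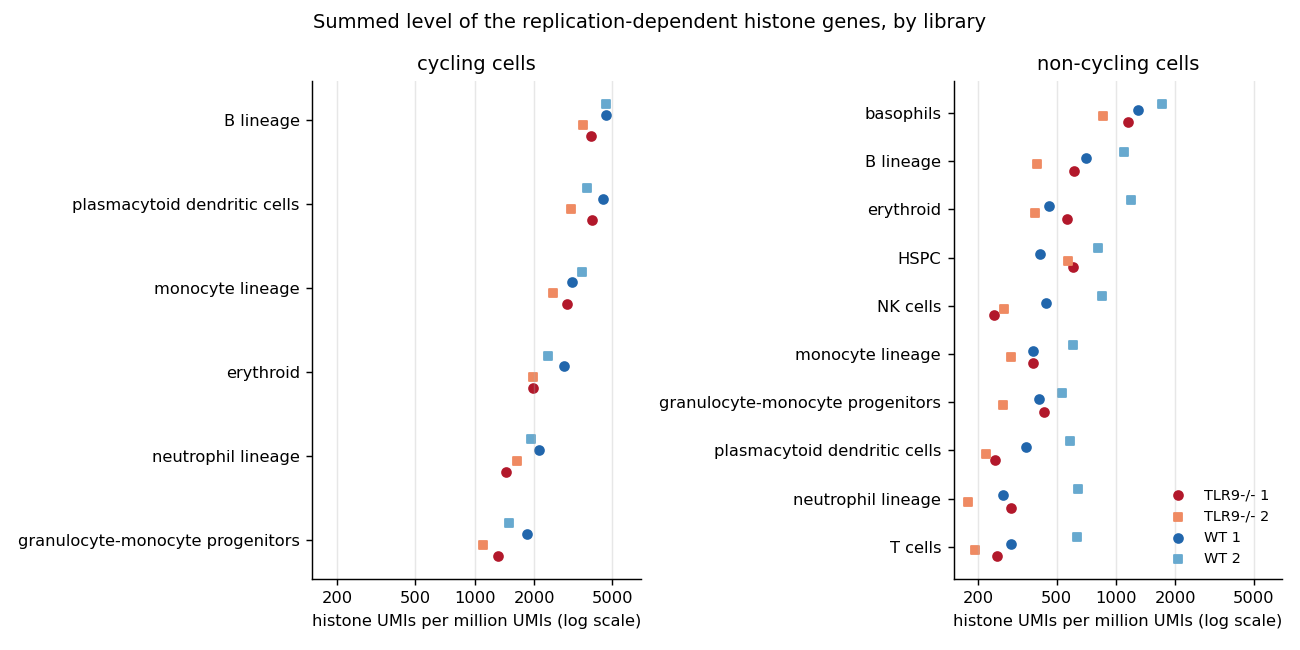
Summed CPM of the 66 histone genes (log axis) in each marker-defined class, shown as 1 point per library for cycling and non-cycling cells. Cycling B lineage cells sit between 3539 and 4660 and non-cycling ones between 395 and 1092, and WT 2 tends to be the highest point among non-cycling cells.

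A few genes supplied most histone UMIs. The H2A family held 41.2% of them over 18 genes, H1 33.1% over 6 genes, H4 10.1% over 13 genes, H2B 9.49% over 17 genes and H3 6.07% over 12 genes. The 25 most abundant members carried 91.8%. Since reads start at the 5′ end and each UMI counts once, values were not divided by gene length.

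Hist1h2ap, a core H2A gene, led with 21993, 12784, 14805 and 14831 UMIs, or 19.96% of all histone UMIs. Hist1h2ae, another H2A gene, followed with 13228, 12660, 11308 and 14232 UMIs (15.9%). The linker histone genes Hist1h1e and Hist1h1b had 35014 and 33932 UMIs over the 4 libraries, and Hist1h1d, Hist1h1c and Hist1h1a had 14928, 13001 and 9862. The most abundant H4 genes were Hist1h4i with 11151 and Hist1h4d with 9804 UMIs, the most abundant H3 gene was Hist1h3e with 8276, and the most abundant H2B gene was Hist1h2bj with 5703. Fewer UMIs fell on Hist2h2bb (5185), Hist2h2ac (4374), Hist3h2ba (4313), Hist1h4h (2840), Hist1h2ac (2626), Hist1h2ak (2385), Hist1h3g (2371) and Hist1h3c (2324). Hist1h2bb (2307), Hist2h4 (2149), Hist4h4 (2095), Hist1h2bc (1994), Hist1h2bm (1824) and Hist1h3d (1793) completed the 25. At the other end were Hist1h1t, the testis linker histone, with 17 UMIs, Hist1h2aa with 5 and Hist1h2bq with 4.

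To see which members follow the cell cycle, UMIs were summed per library and state and compared by edgeR's quasi-likelihood test with the library as a term, with Benjamini-Hochberg adjustment over all genes tested. Values of single genes are CPM of the sum after TMM scaling, fold changes are on the log2 scale with their standard errors (SE), and a call means an adjusted p under 0.05. In B lineage cells, 55 of the 60 members tested rose in cycling cells and 1 fell, whereas 29.7% of all 11905 genes tested rose and 30.5% fell. The median log2 change of the members was 2.71 and that of all genes −0.05. In monocyte lineage cells 51 of 55 rose and 1 fell (22.1% and 21.9% of all genes), and in neutrophil lineage cells 41 of 50 rose and 3 fell (28.5% and 29.5% of all genes). The medians were 2.81 and 2.42. With 1 library left out, 53 to 56, 47 to 50 and 34 to 36 members rose in these lineages. The share of all genes called and the number of members tested in those fits are not given here. A lower count can thus also come from fewer members tested.

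Erythroid cells gave fewer calls. There, 16 of 55 members rose and 0 fell at an adjusted p, against 11.9% and 8.3% of all genes. At an unadjusted p under 0.05 the counts were 22 and 1, while 3214 of all 10553 genes passed in either direction. DESeq2 called 9 and 1 members, and its share of all genes is not given here. The median change was 1.68, or 0.67 with the 14 members that had 0 UMIs in non-cycling cells placed at their bounds, and the median of all genes was itself 0.25. Few erythroid cells lay outside the cycle, namely 99, 75, 182 and 63 non-cycling cells, since 82.0%, 83.2%, 78.8% and 87.6% of erythroid cells cycled. In simulated counts of this comparison, 19% of genes changed by 2-fold and 67% of those changed by 4-fold were recovered, against 92% and 100% in the B lineage. The changed genes were drawn from those well above the lowest number of UMIs tested. Recovery of members with few UMIs is therefore not covered. Leaving out TLR9-/- 1 or TLR9-/- 2 lowered the count to 10 or 9. The share of all genes called and the number of members tested are not given for these fits either.

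Among core histones, Hist1h3g (H3) showed the largest change in B lineage cells. It was 30.5, 25.9, 39.5 and 34.4 CPM in cycling cells and 0.675, 0, 1.26 and 0.434 in non-cycling cells, a log2 change of 5.70 (SE 0.27, adjusted p = 5.83e-09). Nearly all of its UMIs were thus in cycling cells in every library. Hist1h2ap was 1169, 507, 1216 and 902 in cycling cells and 22.3, 8.33, 24.2 and 28.01 in non-cycling cells (log2 change 5.51, SE 0.14, adjusted p = 1.08e-10). Its lowest cycling library still lay far above its highest non-cycling one. Hist1h2ae had 833, 692, 985 and 930 against 43.6, 21.4, 45.2 and 106 (log2 change 4.13, SE 0.23, adjusted p = 2.14e-08), with WT 2 the highest among non-cycling cells. Of the other core genes, Hist1h2bk changed by 5.02, Hist1h2ag by 4.81, Hist1h2ak by 4.32, Hist1h2af by 4.22, Hist1h2ah by 4.13 and Hist2h2bb by 3.96. Without WT 2 the values of Hist1h2af, Hist1h2ag and Hist1h2ah were larger, at 7.25, 5.78 and 6.55, and without WT 1 Hist1h2ah was 3.51 and Hist1h2bk 5.75.

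The linker histones did not change to the same extent. Hist1h1a had 120, 185, 160 and 224 CPM in cycling B lineage cells and 9.79, 6.25, 9.33 and 24.3 in non-cycling ones (log2 change 3.81, SE 0.19). Hist1h1b had 383, 545, 478 and 533 against 22.3, 17.9, 29.3 and 109 (log2 change 3.68, SE 0.31, adjusted p = 8.44e-07). Both were thus more than 4 times higher in cycling cells of every library. Hist1h1d changed by 2.57, and Hist1h1e by 1.88 (SE 0.13, adjusted p = 1.68e-07), with 360, 501, 417 and 450 against 100, 91.6, 116 and 168. Hist1h1c had 94.1, 120, 119 and 145 in cycling and 91.8, 49.1, 84.8 and 73.8 in non-cycling cells (log2 change 0.68, SE 0.16, adjusted p = 0.00267), the smallest rise of the 5 and one in which TLR9-/- 1 was nearly equal in both states. Hist1h1c also had the smallest change of these genes in monocytes (1.07) and neutrophils (0.42).

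Counted by family in B lineage cells, 5 of 5 H1 genes rose (median 2.57), as did 13 of 16 H2A genes (3.37), 15 of 16 H2B genes (2.85), 9 of 10 H3 genes (2.67) and 13 of 13 H4 genes (2.20). Members whose model ended at the stem-loop had a median change of 3.02 in B lineage cells (20 genes). Those whose model had neither a stem-loop nor a poly(A) signal at its end had 3.47 (16 genes). Those with a model that reached beyond the stem-loop or to a poly(A) signal had 1.88 (24 genes). The medians of the last group were also the lowest in monocytes (1.93 against 3.72 and 3.52) and in neutrophils (1.75 against 2.49 and 3.31). The difference between the groups was not tested.

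Some members went against the majority. Hist3h2a, an H2A gene on chromosome 11 (58954685 to 58956830, plus strand), was 7.15, 2.5, 8.12 and 12.002 CPM in cycling and 16.9, 8.93, 14.1 and 18.9 in non-cycling B lineage cells (log2 change −0.94, SE 0.18, adjusted p = 0.000793). It was lower in cycling cells of all 4 libraries, but on cells reduced to 2000 UMIs the log2 change was 0.60, so the direction did not hold there. Reducing cells also left out the shallower ones and called the states again. In monocytes it had 2.68, 3.1, 3.46 and 1.13 against 6.39, 6.59, 5.18 and 8.26 (log2 change −1.26, SE 0.36, adjusted p = 0.0056), a call lost on reduced cells (−0.93) and with DESeq2 (−1.33). Its model overlaps that of Trim17 on the same strand. The 4 members not called in B lineage cells were Hist2h2aa1 (0.61, adjusted p = 0.0657), Hist2h3c1 (0.29, adjusted p = 0.741), Hist1h2br (1.66, adjusted p = 0.0738) and Hist1h2ad (1.34, adjusted p = 0.128). In monocytes the uncalled ones were Hist2h2be (−0.23), Hist3h2ba (0.30) and Hist1h2bc (−0.28).

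In monocytes the strongest named changes were those of Hist2h2bb, Hist1h3g and Hist1h2ap. Hist2h2bb had 33.9, 48.7, 36.3 and 94.2 CPM in cycling cells and 0.456, 1.55, 1.73 and 3.1 in non-cycling ones (log2 change 5.01, SE 0.24, adjusted p = 1.33e-16). Hist1h3g changed by 4.71, Hist1h2ap by 4.50, Hist1h1b by 4.11, Hist1h2ae by 3.85 and Hist1h1e by 2.16. All of these rose, as in B lineage cells. Rises were also found for Hist1h2bk (4.49), Hist1h2bn (4.40), Hist1h2ak (4.29), Hist1h2bm (4.28) and Hist1h3c (3.97). Without WT 2 the changes of Hist1h1b, Hist1h2bm, Hist1h2bn and Hist1h3c were 4.77, 6.02, 5.41 and 5.09, without TLR9-/- 1 those of Hist1h2ak and Hist1h2bk were 5.12 and 6.02, and without TLR9-/- 2 that of Hist1h3c was 3.07.

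Neutrophils held the most members that fell. Hist1h2bc, an H2B gene, was 3.34, 1.67, 6.93 and 4.46 in cycling and 14.2, 6.01, 13.3 and 44.2 in non-cycling neutrophil lineage cells (log2 change −2.45, SE 0.30, adjusted p = 1.86e-08). The non-cycling value was higher in each of the 4 libraries, and without WT 2 the change was −1.63. Hist1h2br had 4 UMIs in cycling and 22 in non-cycling cells (log2 change −2.73, SE 0.76, adjusted p = 0.00282, and −3.65 without WT 1). Hist2h2aa1 had −0.93 (SE 0.37, adjusted p = 0.0322), which was no longer called without TLR9-/- 1 (−0.47) or TLR9-/- 2 (−0.90), without TMM (−0.67) or with DESeq2 (−0.90). Both Hist1h2br and Hist2h2aa1 share most of their windows with other copies, 86.4% and 88.3%. Hist1h4i was 34.2, 18.0, 90.1 and 39.9 against 77, 26.9, 26.6 and 32, lower in cycling cells of the TLR9-/- libraries and higher in those of the WT libraries (log2 change −0.06, adjusted p = 0.825). Among called members with at least 50 UMIs, the largest rises were those of Hist1h3g (6.41, and 8.17 without TLR9-/- 1) and Hist1h4k (5.15, and 6.81 without TLR9-/- 2), followed by Hist1h2ap with 4.37. Hist2h2bb (4.19), Hist1h3d (4.04), Hist1h2bh (3.65), Hist1h2bl (3.53) and Hist1h2ak (3.48) rose too. Without WT 2 the changes of Hist2h2bb, Hist1h2bh and Hist1h2ak were 5.59, 5.07 and 4.46, and without TLR9-/- 2 those of Hist2h2bb, Hist1h3d and Hist1h2bl were 3.22, 3.15 and 5.55. The linker gene Hist1h1d had 53.8, 102, 65.9 and 114 against 4.93, 7.31, 4.09 and 13.6 (log2 change 3.49).

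In erythroid cells, Hist2h4 (H4) was 14.0, 12.5, 21.95 and 9.47 CPM in cycling cells and had 0 UMIs in the non-cycling cells of every library. It was thus at least 4.36-fold higher (383 against 0 UMIs, with 3 UMIs over the group as the floor, adjusted p = 0.00107). Hist1h2bb was at least 4.02-fold higher (353 against 0 UMIs) and Hist1h4k at least 2.07-fold higher (182 against 0 UMIs). Without WT 1 neither Hist1h2bb (adjusted p = 0.0835) nor Hist1h4k (adjusted p = 0.141) was called, and Hist1h4k was also lost without TLR9-/- 1 or TLR9-/- 2. Hist1h2ap had 512, 252, 588 and 354 against 55.6, 11.8, 18.8 and 41.2 (log2 change 3.80, SE 0.35, adjusted p = 4.81e-25), with all cycling values above all others. Hist1h3c (3.46), Hist1h2bj (3.32), Hist1h3g (3.29), Hist2h2bb (3.13) and Hist1h2bm (2.97) rose as well, each on few non-cycling UMIs. Of these, Hist1h3c, Hist1h3g and Hist1h2bm were not called without TLR9-/- 1 (2.95, 2.75 and 2.46) or TLR9-/- 2 (2.66, 2.80 and 2.65), nor Hist1h2bm without WT 1 (2.21). DESeq2 called none of these 3 (2.86, 2.63 and 2.39) nor Hist1h4k, reduced cells gave no call for Hist1h3g (1.90) or Hist1h4k (2.73), and filterByExpr none for Hist1h2bm (2.78). Hist1h2bj was 4.05 without TLR9-/- 2, and Hist2h2bb 2.49 without TLR9-/- 2 and 4.35 without WT 1. Hist1h2ae changed by 2.58 (3.35 without WT 2), Hist1h1d by 2.03 and Hist1h1b by 1.88, while Hist1h1e (0.63, adjusted p = 0.0993) and Hist1h2bc (−1.19, adjusted p = 0.0541) were not called.

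**Figure D2:**
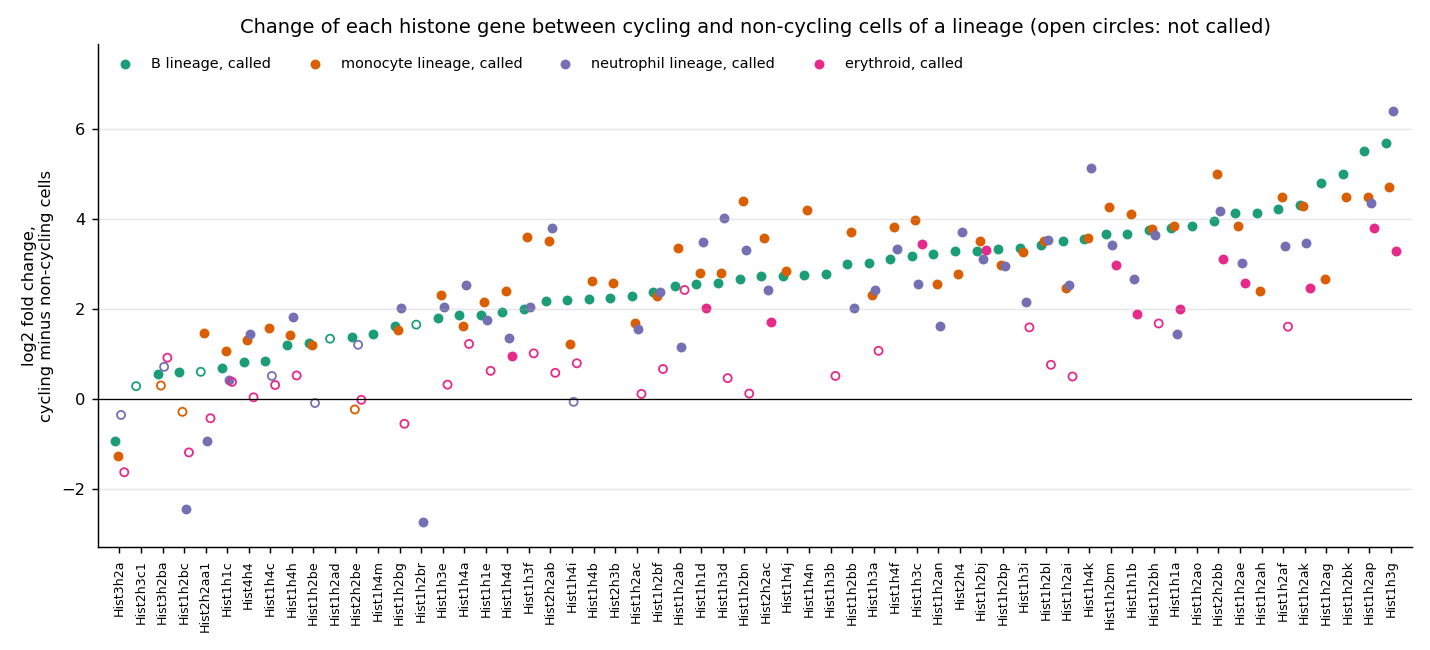
Log2 change between cycling and non-cycling cells for each histone gene in 4 lineages, 1 point per gene, filled where the adjusted p was under 0.05 and open where not. Most B lineage, monocyte and neutrophil points lie well above 0 around medians of 2.71, 2.81 and 2.42, and members at 0 UMIs in non-cycling cells are not drawn.

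A test of the difference between lineages, chosen after seeing the data, was run as an interaction term in 1 fit over both lineages. Against the B lineage, the change of 2 of 55 members differed in monocytes (25.9% of all genes), of 8 of 50 in neutrophils (35.8%) and of 5 of 55 in erythroid cells (13.8%). Hist1h2ap changed less than in B lineage cells in all 3, by −0.932 (SE 0.19, adjusted p = 0.000805) in monocytes, −0.979 (SE 0.22, adjusted p = 0.00255) in neutrophils and −1.63 (SE 0.42, adjusted p = 0.00996) in erythroid cells. The 3 tests share the same B lineage sums. For Hist1h2bc the difference was −2.92 in neutrophils and −1.67 in erythroid cells.

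The genes that serve the histones were taken from lists of textbook functions. Of all genes, 29.7%, 22.1%, 28.5% and 11.9% rose in cycling cells of the B lineage, monocytes, neutrophils and erythroid cells. Of the genes for histone mRNA processing, 13 of 16 rose in cycling B lineage cells, 9 of 15 in monocytes, 10 of 15 in neutrophils and 4 of 15 in erythroid cells. Slbp was 417 against 81.8 CPM on average in B lineage cells (log2 change 2.35) and 267 against 78.9 in monocytes (1.78). Lsm10, part of the particle that recognises the end of histone pre-mRNA, fell in monocytes (−0.81) and neutrophils (−2.34). Of the chaperones, which carry new histones to DNA, 12 of 13 rose in B lineage cells, 12 in monocytes, 11 in neutrophils and 11 in erythroid cells, and 1 fell in monocytes. Asf1b changed by 4.60, 3.97, 4.44 and 2.85 in the same order. The replication-independent variants rose in 10 of 10, 9 of 10, 6 of 9 and 5 of 10 cases, with H2afx, which marks DNA breaks, at 4.73 in B lineage cells and H2afz at 3.21.

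Cycling cells were then split by their S phase and G2/M genes, lists without histone genes, to compare the members between these parts. Only cells with at least 2 UMIs on Mki67, Top2a and Birc5 entered, so S phase cells below this limit are not covered. The split therefore cannot show where in the whole cycle the members were highest. In B lineage cells, 2 of 55 members were higher in S-rich cells and 18 were lower, against 19.2% and 17.6% of all genes. In monocytes the counts were 2 and 11 of 51 (16.0% and 15.1% of all genes), and in erythroid cells 0 and 30 of 53 (31.2% and 17.0% of all genes). At an unadjusted p under 0.05, 1 member was higher and 32 were lower in erythroid cells. Of all 9417 genes tested there, 5135 passed this in either direction. DESeq2 called 0 and 27 members, and its share of all genes is not given here. The median of the members was −0.42, −0.32 and −1.13, and that of all genes 0.51 in erythroid cells, so that the members lay further below the other genes there. The number of S-rich cells per library was 255, 95, 409 and 336 in the B lineage, 174, 141, 82 and 77 in monocytes and 184, 200, 232 and 268 in erythroid cells. That of G2/M-rich cells was 265, 101, 417 and 337, then 276, 238, 108 and 100, and 219, 53, 434 and 46 in the same order of lineages. The erythroid differences of TLR9-/- 2 and WT 2 thus rest on few G2/M-rich cells.

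Depth moved with these states. Median UMIs per S-rich B lineage cell were 3948, 6884, 2993 and 4689, against 3089, 4457, 2466 and 3731 in G2/M-rich cells, and in erythroid cells 5470.5, 13445.5, 3480 and 10443.5 against 2260, 1412, 2138 and 1318. On cells reduced to 2000 UMIs the counts were 5 higher and 2 lower in the B lineage, 2 and 0 in monocytes and 0 and 9 in erythroid cells. The share of all genes called on reduced cells is not given here, so these counts do not set the members apart. Lower members did not outnumber higher ones in the B lineage and monocytes there. Since this step also left out shallower cells and called the states again, the part of depth alone was not tested. The summed histone level in CPM was 3044, 2906, 3658 and 4049 in S-rich and 4884, 4263, 4973 and 4499 in G2/M-rich B lineage cells, lower in S-rich cells of every library. The same held in monocytes, with 2223, 1673, 2275 and 2632 against 2681, 2139, 2698 and 2884, and in erythroid cells, with 2131, 1797, 2964 and 2322 against 2382, 4262, 3892 and 4352.

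The linker gene Hist1h1a and the H4 gene Hist1h4i were the members higher in S-rich cells of both the B lineage and monocytes at an adjusted p. In monocytes it had 38, 85.1, 95.7 and 89 CPM in S-rich and 22.8, 24.8, 25.2 and 40.2 in G2/M-rich cells (log2 change 1.40, SE 0.16, adjusted p = 2.88e-11). In the B lineage it had 98.9, 196, 123 and 192 against 92.5, 108, 115 and 133 (log2 change 0.38, SE 0.11, adjusted p = 0.00861), a call lost without WT 2 (0.31), without TMM (0.23) or with DESeq2 (0.39). Hist1h4i had 52.2, 28.1, 316 and 221 in S-rich and 67.3, 37.3, 174 and 102 in G2/M-rich B lineage cells (log2 change 0.68, SE 0.16, adjusted p = 0.00182). Only the WT libraries were higher in S-rich cells, and the call was lost without WT 1 (0.49) or WT 2 (0.39) and with DESeq2 (0.42). In monocytes Hist1h4i changed by 0.37 (adjusted p = 0.0424), which was lost in the same way (0.31, 0.36 and 0.39), without a filter on low counts (0.35) and on reduced cells (0.86).

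Other members were higher in G2/M-rich cells. Hist3h2ba, an H2B gene on chromosome 11, had 44.2, 17.4, 67.1 and 39.1 in S-rich and 129, 139, 171 and 73.8 in G2/M-rich B lineage cells (log2 change −1.47, SE 0.16, adjusted p = 2.5e-07). Its values in erythroid cells were 23.6, 11.1, 41.6 and 12 against 232, 142, 375 and 77.4 (log2 change −3.24, SE 0.23, adjusted p = 2.21e-43), without overlap. Hist1h1c had 72.3, 80.4, 70.7 and 105 against 124, 160, 152 and 136 in the B lineage (−0.77, adjusted p = 1.53e-05). Hist2h2ab changed by −1.74, Hist1h4h by −1.02, Hist1h3f by −0.85, Hist4h4 by −0.80, Hist1h2bl by −0.76, Hist1h2bn by −0.74, Hist1h2bc by −0.72 and Hist1h2bb by −0.66. Without TLR9-/- 1, 4 of these were not called, namely Hist1h3f (−0.72), Hist1h2bl (−0.40), Hist1h2bn (−0.61) and Hist1h2bc (−0.62). Hist4h4 (−0.61) and Hist1h2bn (−0.77) were lost without WT 1, and Hist1h2bc (−0.55) and Hist1h2bn (−0.84) without WT 2. On cells reduced to 2000 UMIs, Hist3h2ba and Hist1h4h were still called, whereas Hist1h1c (−0.31), Hist2h2ab (−1.58), Hist4h4 (−0.79), Hist1h2bl (−0.59), Hist1h2bn (−0.69), Hist1h2bc (−0.18) and Hist1h2bb (−0.36) were not, and Hist1h3f turned to 0.066. DESeq2 called none of Hist1h3f, Hist4h4, Hist1h2bl, Hist1h2bn, Hist1h2bc and Hist1h2bb, at −0.89, −0.79, −0.62, −0.73, −0.72 and −0.69.

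In monocytes, Hist1h1e had 187, 198, 248 and 242 in S-rich and 271, 341, 292 and 334 in G2/M-rich cells (−0.55), lower in all 4 libraries. Hist2h2ab (−1.66, and −2.34 without TLR9-/- 1), Hist1h4d (−0.78) and Hist1h2ae (−0.31) were also lower. On reduced cells none of Hist1h1e (−0.24), Hist1h4d (−0.16) and Hist1h2ae (0.27, a turned direction) was called, and DESeq2 did not call Hist2h2ab (−1.92). Hist1h3c (−0.71), Hist2h2ac (−0.54) and Hist1h1c (−0.45) were called with all libraries but not without TLR9-/- 2 (−0.40, −0.43 and −0.19), and Hist2h2ac was also lost without WT 2 (−0.46). All 3 were lost on reduced cells (−0.46, −0.19 and −0.28) and with DESeq2 (−0.76, −0.55 and −0.38). The changes of Hist1h1b (−0.19) and Hist1h2ap (−0.16) were small, and neither was called without TLR9-/- 1 (−0.14 and −0.09), TLR9-/- 2 (−0.11 and −0.15) or WT 1 (−0.18 and −0.11), with DESeq2 (−0.17 and −0.14), with filterByExpr (−0.15 and −0.12) or without the 5% of cells with most UMIs (−0.16 and −0.13). On reduced cells both turned, to 0.30 and 0.39, and Hist1h2ap was then called in the opposite direction (adjusted p = 0.00831). In erythroid cells, Hist1h2bc (−2.18), Hist1h2bn (−2.08), Hist1h3c (−2.06), Hist1h4h (−1.90), Hist1h2ai (−1.74) and Hist1h3f (−1.60) were lower in S-rich cells. On reduced cells Hist1h3c (−0.86), Hist1h4h (−0.94), Hist1h2ai (−0.35) and Hist1h3f (−1.01) were not called. Hist1h2bg (−1.53), Hist1h4c (−1.41) and Hist1h2be (−1.37) were lower as well, but none of these 3 was called without WT 1, with −1.73, −1.32 and −1.50. Hist1h2bg (−1.66) and Hist1h4c (−1.32) were also lost without TLR9-/- 1, and Hist1h2be (−1.17) without TLR9-/- 2. All 3 were lost without TMM (−1.13, −0.96 and −0.99) and without the 5% of cells with most UMIs (−1.17, −1.23 and −1.10), and Hist1h4c also on reduced cells (−0.93) and with DESeq2 (−1.56).

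**Figure D3:**
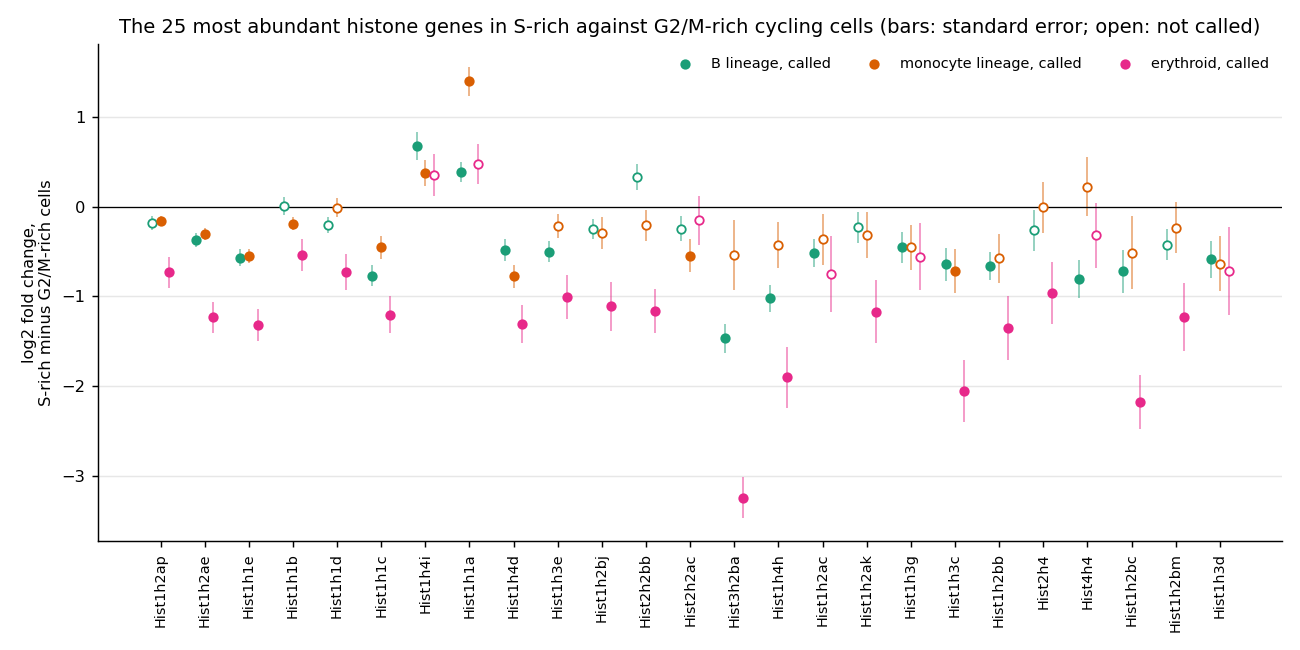
Log2 difference between S-rich and G2/M-rich cycling cells for the 25 most abundant histone genes in 3 lineages, with bars of 1 SE. Hist1h1a lies above 0 at 1.40 in monocytes, and Hist3h2ba lies lowest in erythroid cells at −3.24.

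The processing and chaperone lists went the other way from the members in cells as counted. Their values on reduced cells are not given here. Of all genes, 19.2%, 16.0% and 31.2% were higher in S-rich cells of the B lineage, monocytes and erythroid cells, and 17.6%, 15.1% and 17.0% lower. In S-rich cells, 9 of 15 processing genes were higher in the B lineage, 7 of 15 in monocytes and 9 of 15 in erythroid cells, at an adjusted p under 0.05. Slbp had 566 in S-rich and 168 in G2/M-rich B lineage cells on average (log2 change 1.76), 404 against 124 in monocytes (1.72), and 1.00 in erythroid cells. Of the chaperones, 10 of 13 were higher in the B lineage and in monocytes and 8 in erythroid cells, with 1 lower in each. Chaf1b, a subunit of the factor that assembles nucleosomes on new DNA, changed by 3.15, 3.94 and 3.79, and Nasp by 1.48 in the B lineage. Among the variants 2 were higher and 5, 6 and 4 lower, the lower ones including H2afx (−1.94, −1.87 and −2.38) and Cenpa, the centromeric H3 variant (−2.82, −4.01 and −1.73).

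To describe the members outside the cell cycle, non-cycling neutrophil and B lineage cells were compared. In neutrophils, 9 of 45 members were higher and 7 lower, against 31.5% and 40.3% of all genes, whose median was −0.30. The split depended on scaling. Without TMM, where the median of all genes was −1.65, 4 were higher and 29 lower, and on cells reduced to 2000 UMIs the counts were 4 and 1. Shares of all genes called are not given for these alternatives. WT 2 had the highest summed histone level in both classes, with 640 and 1092 CPM.

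Hist1h2bc was 20.3, 8.76, 19.1 and 63.9 in non-cycling neutrophils and 3.87, 3.98, 9.6 and 8.14 in non-cycling B lineage cells (log2 difference 2.08, SE 0.27, adjusted p = 1.07e-07), higher in every library, but 0.07 and not called on reduced cells. Hist1h4i had 110, 39.2, 38.3 and 46.2 against 19.1, 7.97, 30.5 and 14 (1.79, SE 0.21), with the widest gap in TLR9-/- 1, and 0.42, not called, on reduced cells. The largest difference was that of Hist1h2br (3.94, SE 0.80, adjusted p = 3.36e-05), which rested on 22 against 6 UMIs. Hist2h2aa1 differed by 2.12 (SE 0.36), Hist1h2be by 1.18 and Hist1h2ap by 1.03, the linker genes Hist1h1c and Hist1h1e by 0.79 and 0.32, and Hist1h4d by 0.58. Hist1h1e was not called without TLR9-/- 2 (0.22), WT 1 (0.31) or WT 2 (0.33), and Hist1h4d not without WT 2 (0.55). Hist1h1e was also lost with DESeq2 (0.27) and without a filter on low counts (0.26), and Hist1h2be on reduced cells (0.41). The directions of Hist1h2be, Hist1h2ap, Hist1h1c, Hist1h4d and Hist1h1e turned without TMM.

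Hist3h2ba was the member most clearly lower in neutrophils. It had 1.77, 0.762, 2.94 and 2.72 against 37.8, 26.5, 45.5 and 27.9 (log2 difference −4.16, SE 0.30, adjusted p = 4.38e-13), without overlap. Hist1h4j had 0 UMIs in non-cycling neutrophils and 20 in non-cycling B lineage cells, at least 4.57-fold lower. Hist1h3d (−2.09), Hist3h2a (−1.76), Hist1h4h (−1.03), Hist4h4 (−0.96) and Hist1h1d (−0.85) were also lower. Hist1h3d was not called without TLR9-/- 2 (−1.39) or WT 2 (−1.87), nor Hist4h4 without WT 1 (−0.86) or WT 2 (−0.87). On reduced cells Hist3h2a (−0.45), Hist1h4h (−0.25), Hist4h4 (−0.43) and Hist1h1d (−0.03) were not called, and DESeq2 did not call Hist1h3d (−2.06) or Hist1h4j. Of all genes, 31.5% were higher and 40.3% lower in neutrophils. Of the processing genes 3 were higher and 9 lower of 15, of the chaperones 1 and 7 of 13, and of the variants 2 and 5 of 10. Lsm10 (1.81), Hjurp (2.40), which loads Cenpa onto centromeres, and H2afz (2.19) were among the higher ones.

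Between the genotypes, the summed histone level in cycling cells was lower in TLR9-/- mice. Both TLR9-/- libraries lay below both WT libraries in the B lineage, monocytes, neutrophils, erythroid cells and GMPs, at 79.9%, 81.6%, 76.0%, 76.1% and 72.6% of the WT mean. The values for GMPs, for example, were 1307, 1106, 1837 and 1487 CPM. The levels overlapped in cycling pDCs (3936, 3065, 4455 and 3694) and in cycling later B cells. At 2 libraries against 2 the smallest p an exact two-sided permutation test allows is 0.33, so the sums alone do not pass a threshold. On the log2 scale the differences were −0.33, −0.30, −0.40, −0.39 and −0.46, and on cells reduced to 2000 UMIs −0.24, −0.28, −0.47, −0.19 and −0.64. The share of cycling B lineage cells was 26.3%, 14.4%, 26.9% and 25.9%. Median depth per cell was higher in TLR9-/- libraries, at 2545, 3618, 1759 and 2287 UMIs. In cycling B lineage cells, 79.6%, 82.9%, 73.3% and 75.5% were pro-B and pre-B cells, and in these alone both TLR9-/- libraries again lay below both WT libraries. The proliferation genes used to call cycling cells were lower in both TLR9-/- libraries as well, at 2033, 2085, 2198 and 2315 CPM in the B lineage, 1681, 1663, 2350 and 1721 in erythroid cells and 778, 748, 847 and 829 in GMPs, but not in monocytes (1839, 1809, 1687 and 1865) or neutrophils (1117, 1195, 1152 and 1220). Their part in the summed level was not tested, nor that of depth beyond the reduction of cells.

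By gene, few members passed the test between genotypes. Sums over all cells also carry the mix of classes, which differed between the libraries. GMPs numbered 1085, 879, 391 and 426 cells, and B lineage cells 3204, 2201, 5063 and 4233. These were the classes with the lowest and the highest mean CPM in the order of cycling cells given above. The part of this mix in the values over all cells was not tested. Over all cells, 2 of 63 members were called, 1 higher and 1 lower in TLR9-/- mice, against 0.251% of all genes in either direction. In cycling B lineage cells 4 of 59 were called (0.417% of all genes), in non-cycling B lineage cells 1 of 42 (0.248%), in cycling monocytes 1 of 55 (0.312%) and in non-cycling monocytes 0 of 21 (0.656%). In the last, edgeR gave 7 lower and 0 higher members at an unadjusted p under 0.05. Of all 9450 genes tested there, 569 passed this in either direction. DESeq2 also called 0 members. In cycling neutrophils 2 of 46 were called (0.605%), in non-cycling neutrophils 1 of 22 (0.371%), in cycling erythroid cells 1 of 55 (0.163%) and in cycling GMPs 2 of 57 (0.211%). These 14 calls fell on 5 genes, Hist1h2ac, Hist1h2bl, Hist1h4i, Hist1h2bj and Hist1h4d.

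More members were called when the replicate number was added to the fit as a block. The study's methods describe a pair of experiments with a mouse of each genotype in each, but which libraries belong together is not given in the sources used here. If the numbers mark the experiments, 25 of 63 members were called over all cells, 2 higher and 23 lower in TLR9-/- mice (10.1% of all genes). The counts were then 15 in cycling and 3 in non-cycling B lineage cells (3.43% and 0.652% of all genes), 6 in cycling and 5 in non-cycling monocytes (0.82% and 1.86%), 9 in cycling and 6 in non-cycling neutrophils (2.59% and 0.668%), 11 in erythroid cells (1.05%) and 17 in GMPs (3.54%). DESeq2 without the block also gave more over all cells, with 1 higher and 15 lower. The share of all genes called by DESeq2 is not given here, so this count does not set the members apart. Among the members called with the block alone were Hist1h2ab, Hist1h4j, Hist1h2an and Hist1h2bp over all cells (−2.58, −1.86, −2.12 and 1.22), and Hist1h4m, which had 0 UMIs in both TLR9-/- libraries. Hist1h4i was called in cycling monocytes (−1.66), neutrophils (−1.32), erythroid cells (−2.90) and GMPs (−1.62). Hist1h2bl was called with the block in cycling monocytes (2.68) and erythroid cells (2.66), and Hist1h2ac in non-cycling neutrophils (−3.71). The adjusted p-values given below for single genes are those of the fit without the block.

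A wider shift in 1 direction was seen in the order of the libraries. Values over all cells again include the differing mix of classes, whose part was not tested. Both TLR9-/- libraries lay below both WT libraries for 37 of 63 members over all cells (24.9% of all genes), 29 of 59 in cycling B lineage cells (20.2%), 25 of 42 in non-cycling ones (16.3%) and 30 of 57 in GMPs (21.2%). For cycling monocytes, neutrophils and erythroid cells the counts were 19 of 55 (18.4%), 22 of 46 (19.3%) and 24 of 55 (18.5%), and for non-cycling monocytes and neutrophils 7 of 21 (17.2%) and 9 of 22 (17.2%). The median log2 difference of the members was −0.58 over all cells, −0.36 in cycling B lineage cells and −0.93 in non-cycling ones, while the median of all genes was within 0.03 of 0. Without WT 2, which stood apart in non-cycling cells, it was −0.60, −0.42 and, over the 29 members then tested, −0.52. In non-cycling monocytes the median went from −0.47 (21 members) to 0.01 (17 members) and in non-cycling neutrophils from −1.25 (22 members) to −0.39 (11 members). Fewer members were thus tested without WT 2. With WT 2 kept, filterByExpr also tested fewer members, and the medians were −0.30 (18 members) and −0.71 (10 members). How much of the change came from WT 2 and how much from the set of members was not tested.

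Hist1h2ac, an H2A gene on chromosome 13 (23681467 to 23683948, minus strand), was the member lower in TLR9-/- cells of most classes. Over all cells it had 306, 255, 813 and 1252 UMIs, or 6.11, 4.002, 25.9 and 30.3 CPM (log2 difference −2.48, SE 0.25, adjusted p = 0.0393). In cycling B lineage cells it had 48, 18, 277 and 395 UMIs, or 10.8, 7.19, 55.4 and 64.0 CPM (−2.68, SE 0.23, adjusted p = 0.000687). The highest TLR9-/- value lay far below the lowest WT value in both sums. The difference was −2.65 in non-cycling B lineage cells (SE 0.40, adjusted p = 0.0368, with 2.18, 2.22, 11.7 and 16.2 CPM) and −2.43 in cycling monocytes (SE 0.35, adjusted p = 0.0344, with 8.85, 5.70, 26.6 and 51.7). Cycling neutrophils had 5.01, 4.20, 13.9 and 21.6 (−2.05, SE 0.35, adjusted p = 0.013), erythroid cells 4.16, 1.75, 23.2 and 22.4 (−3.06, SE 0.37, adjusted p = 0.0377), and GMPs 4.09, 3.56, 25.3 and 26.1 (−2.76, SE 0.19, adjusted p = 0.00344). The groups did not overlap in any of these 7 sums. In non-cycling neutrophils (−3.63, adjusted p = 0.0796) and monocytes (−1.10, adjusted p = 0.875) the gene had at most 18 UMIs in a library and was not called.

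The calls of Hist1h2ac over all cells and in cycling B lineage cells were kept under every alternative run, with adjusted p up to 0.0420 and 0.00717. Without WT 2 the difference was −2.39 in non-cycling B lineage cells (adjusted p = 0.681), −1.87 in cycling monocytes (adjusted p = 0.351) and −1.61 in cycling neutrophils (adjusted p = 0.544), and none was called. In non-cycling B lineage cells it was also lost without WT 1 (−2.87, adjusted p = 0.116), and in erythroid cells without TLR9-/- 2 (−2.43, adjusted p = 0.123), where it was −3.69 without TLR9-/- 1. On reduced cells it was not called in non-cycling B lineage cells (−2.17), cycling monocytes (−2.09), erythroid cells (−2.96) or GMPs (−3.36). In cycling neutrophils it was not tested on reduced cells. Without the 5% of cells with most UMIs it was not called in erythroid cells (−3.03) or GMPs (−2.37), without a filter on low counts not in monocytes (−2.41), and with DESeq2 not in neutrophils (−1.98). Over its whole model of 2482 bases, 8.06% of the windows of Hist1h2ac are shared with other copies. Of these bases, 2010 lie after the stem-loop, whereas the kit reads the 5′ end. The share in the part that is read was not tested, so copies may also affect this gene's value.

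Hist1h2bl, an H2B gene on chromosome 13 (21715763 to 21716143, minus strand), was higher in TLR9-/- cells. It had 537, 539, 52 and 65 UMIs over all cells, or 10.7, 8.46, 1.66 and 1.57 CPM (log2 difference 2.57, SE 0.23, adjusted p = 0.0285). In cycling B lineage cells it had 32.1, 23.2, 4.20 and 4.21 CPM (2.73, SE 0.26, adjusted p = 0.0015), again with no overlap. GMPs had 8.18, 6.72, 0.893 and 0.843 (3.09, SE 0.39, adjusted p = 0.0447) and cycling neutrophils 7.74, 9.91, 1.98 and 0.292 (3.59, SE 0.69, adjusted p = 0.0291). In cycling monocytes (2.69, adjusted p = 0.0524) and erythroid cells (2.64, adjusted p = 0.0702) the values pointed the same way without a call. The call in the cycling B lineage held under every alternative (adjusted p up to 0.00512). Over all cells it was lost without TLR9-/- 1 (2.39, adjusted p = 0.0575) and on reduced cells (2.40, adjusted p = 0.0675), and in neutrophils without WT 2 (2.14, adjusted p = 0.615) and with DESeq2 (3.50), with 4.77 without WT 1. In GMPs it was lost with any 1 library left out, at 2.94 and 3.22 without TLR9-/- 1 and 2 and 3.14 and 3.03 without WT 1 and 2, and also without the 5% of cells with most UMIs (4.14).

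The promoters of this pair are printed since they carry the largest differences in either direction among the members called over all cells. Shown are the 250 bases before the start of the RefSeq model (GRCm38.p6), read on the strand of the gene, with the TATA box (TATAAA), the CCAAT box (CCAAT) and the octamer (TTTGCAT), on either strand, in capitals.
Hist1h2ac (chr13:23683960-23684209, minus strand): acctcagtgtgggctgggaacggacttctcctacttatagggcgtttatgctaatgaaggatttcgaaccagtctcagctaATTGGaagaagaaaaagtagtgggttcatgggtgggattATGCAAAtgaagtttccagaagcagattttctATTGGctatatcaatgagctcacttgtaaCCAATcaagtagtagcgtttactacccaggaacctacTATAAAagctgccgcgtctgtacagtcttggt
Hist1h2bl (chr13:21716184-21716433, minus strand): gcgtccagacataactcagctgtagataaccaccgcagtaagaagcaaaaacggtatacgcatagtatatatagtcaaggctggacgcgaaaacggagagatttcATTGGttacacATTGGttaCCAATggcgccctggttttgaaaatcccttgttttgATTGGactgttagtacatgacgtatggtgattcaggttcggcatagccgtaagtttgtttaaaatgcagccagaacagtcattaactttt
In Hist1h2ac, TATAAA began 32 bases before the start, and the letters TATAAA and TTTGCAT were not in the window of Hist1h2bl. TATAAA was in the promoters of 29 of the 62 members matched (46.8%, against 12.4% of 32851 promoters of the same length), CCAAT in 51 (82.3% against 33.8%) and TTTGCAT in 14 (22.6% against 4.12%). The 3 motifs do not overlap each other. A match is a description of the sequence only.

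Hist1h4i (chromosome 13, 22040636 to 22041362, minus strand) was lower in cycling TLR9-/- B lineage cells, with 237, 83, 1230 and 990 UMIs, or 53.2, 33.1, 246 and 160 CPM (log2 difference −2.21, SE 0.26, adjusted p = 0.00538). The call was lost without TLR9-/- 2 (−1.94, adjusted p = 0.0532). In erythroid cells the values were 36.1, 16.7, 252 and 134 (−2.89, adjusted p = 0.114), in cycling monocytes the difference was −1.62 (adjusted p = 0.0943) and in GMPs −1.58 (adjusted p = 0.183), not called. In non-cycling neutrophils it did not share this direction, with 70.7, 23.8, 24.3 and 29.2 (0.74, adjusted p = 0.962). Its neighbour Hist1h2bj (22043214 to 22043676, plus strand) had 56.6, 48.3, 124 and 112 CPM in cycling B lineage cells (−1.16, SE 0.16, adjusted p = 0.0126), a call lost without TLR9-/- 1 (−1.29, adjusted p = 0.0546) or TLR9-/- 2 (−1.07, adjusted p = 0.193) and on reduced cells (−1.02, adjusted p = 0.123). Hist1h4d was lower in non-cycling TLR9-/- neutrophils, with 7.35, 6.70, 14.0 and 60.5 CPM (−2.51, SE 0.49, adjusted p = 0.0401). It rested on WT 2, without which the difference was −1.04 (adjusted p = 0.813), and it was also not called without TLR9-/- 2 (−2.44, adjusted p = 0.0722), with −3.11 without WT 1, nor on reduced cells (−2.35), with filterByExpr (−2.52) or without TMM (−2.61).

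**Figure D4:**
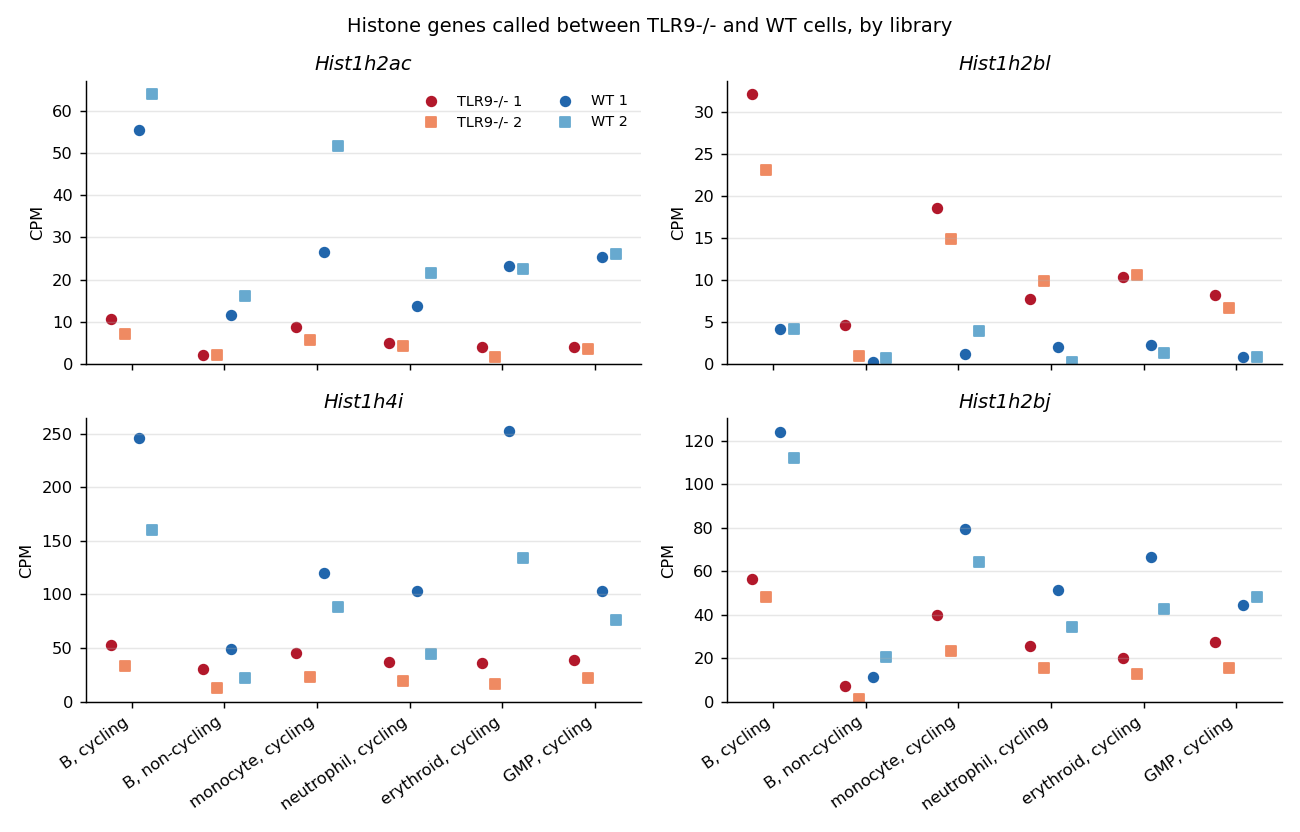
CPM of Hist1h2ac, Hist1h2bl, Hist1h4i and Hist1h2bj in each of the 4 libraries, in 6 sums of a class and state. The TLR9-/- points of Hist1h2ac lie below the WT points in every sum drawn where it was called, and those of Hist1h2bl above them.

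For fits with 1 library left out, the share of all genes called is not given here. Leaving out 1 library moved most of the counts of members called between genotypes. Over all cells it was 1 without TLR9-/- 1 and 4 without WT 2, and in cycling B lineage cells 7 without TLR9-/- 1 and 2 without TLR9-/- 2. In non-cycling B lineage cells it was 14, 6, 3 and 0 with the libraries left out in their order, in cycling monocytes 11, 5, 2 and 0, in non-cycling neutrophils 9, 0, 5 and 0, in erythroid cells 2, 0, 5 and 9, and in cycling neutrophils 6, 2, 2 and 1. In GMPs it was 1 without any of TLR9-/- 2, WT 1 and WT 2, and in non-cycling monocytes 1, 1, 3 and 0.

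Some members with large differences were not called. Hist1h4m had 0, 0, 98 and 27 UMIs over all cells. The TLR9-/- libraries together allow up to 0.0263 CPM, at least 65.5-fold lower than the 1.72 CPM of the WT libraries, but most WT UMIs were in WT 1 and the adjusted p was 0.143. This gene shares 88.1% of its windows with other H4 copies. Hist1h2ab had 123, 136, 281 and 849 UMIs (−2.69, adjusted p = 0.0973) and Hist1h4j 70, 95, 224 and 160 (−1.92, adjusted p = 0.124), both with lower values in TLR9-/- mice. Hist1h2bp, next to Hist1h2an, had 302, 236, 81 and 66 UMIs (1.23, adjusted p = 0.214), whereas Hist1h2an differed by −2.04 (adjusted p = 0.135).

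Many H2A and H2B genes stand head to head, starting close to each other on opposite strands. Within 500 bases, 12 such pairs were found. In cycling B lineage cells the partners did not always share their difference between genotypes. Hist1h2ac differed by −2.68 and its partner Hist1h2bc, 251 bases away, by −0.59 (adjusted p = 0.499). Hist1h2bl differed by 2.73 and Hist1h2ai, at 279 bases, by 0.07, with 19.98, 11.2, 17.6 and 13.3 CPM for the latter. Hist1h2an and Hist1h2bp (243 bases) had −1.73 and 1.33, Hist1h2ag and Hist1h2bj (270 bases) −0.01 and −1.16, and Hist1h2ak and Hist1h2bn (296 bases) −0.47 and −1.11. Whether the partners of a pair differ from each other was not tested.

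**Figure D5:**
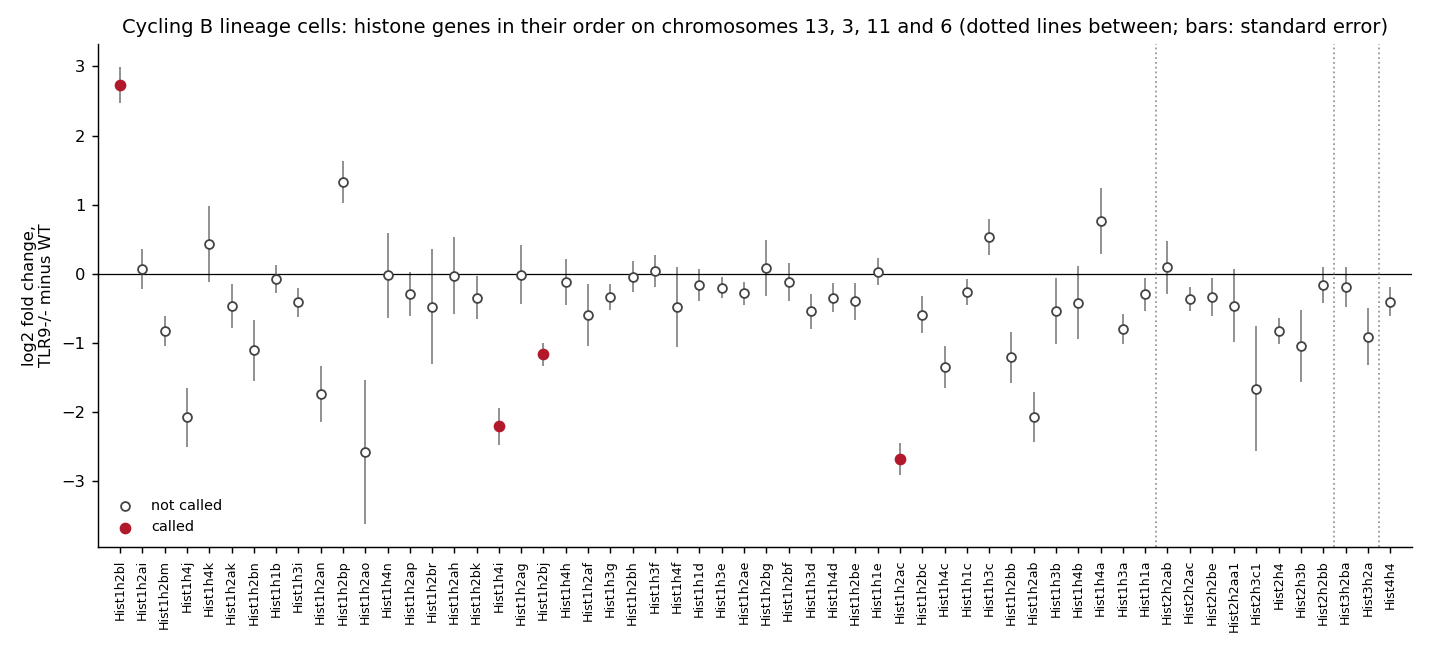
Log2 difference between TLR9-/- and WT in cycling B lineage cells for each histone gene, in the order of the genes along chromosomes 13, 3, 11 and 6, with bars of 1 SE and filled points where the adjusted p was under 0.05. Hist1h2bl stands at 2.73 and Hist1h2ac at −2.68, and the median of all members drawn lies below 0. Hist1h4m is not drawn.

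Among the lists around the histones, the calls between genotypes fell on 1 chaperone. Hjurp was lower in TLR9-/- cells, with 55.5 against 113 CPM on average in cycling B lineage cells (log2 difference −1.04, SE 0.17, adjusted p = 0.039). In non-cycling B lineage cells it had 7.44 against 35.8 (−2.28, SE 0.31, adjusted p = 0.0229), and in non-cycling neutrophils 22 against 60.9 (−1.45, SE 0.29, adjusted p = 0.0435).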

How the data were processed

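Deposited for each of the 4 libraries was a matrix of UMI counts per gene and cell, made by the authors with Cell Ranger (version 3.0.1 per the file headers) and STAR on mm10, before their libraries were brought to equal depth. Seurat 2.3.4 is also named in the submitters' notes. The counts are not normalized, and libraries are not pooled.

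Cells with 200 to 10000 genes and at most 10% mitochondrial UMIs were kept (the methods print 0.10%, read here as a fraction). A cell was given a class with at least 3 UMIs on at least 2 of its markers and a score 1.5 times that of the next class. Calr was left out of the GMP markers, since it was in 23.5% of other named cells. Cells between 2 classes (3169) or with too few markers (676) stayed unnamed, which also set aside mixed droplets, and no doublet caller was run. Cells with more than 2 in 3 of at least 4 phase UMIs on the S phase list were S-rich, and with fewer than 1 in 3 G2/M-rich.

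UMIs were summed per library, class and state. Genes with at least 20 UMIs in the sums were tested with edgeR 4.0.16 (R 4.3.3, limma 3.58.1), quasi-likelihood, TMM and two-sided Benjamini-Hochberg adjustment, with genotype as the only term (the study's methods describe 2 experiments with 1 mouse of each genotype, without saying which libraries these are) or, between states of the same libraries, the library as a term. Alternatives were DESeq2 1.42.0, no TMM, no filter on low counts, filterByExpr, cells reduced to 2000 UMIs (this left out 4416, 2606, 5898 and 4068 cells), removal of the 5% of cells with most UMIs, leaving out each library, and the library number as a term. Tests were checked on simulated counts, in which the changed genes were well above the lowest number of UMIs tested, so that genes with few UMIs are not covered. For genes changed by 2-fold and 4-fold, 67% and 97% were recovered between genotypes in cycling B lineage cells, and 25% and 94% in non-cycling neutrophils. Both the number of libraries and the depth of a class limit precision. Counting floors (3 UMIs) cover counting error only.

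Named were the 25 members with most UMIs and, in each comparison, up to 10 members called per direction among those with at least 50 UMIs, by size of change, with every called member against the majority. From the other lists, called genes were eligible. The 5 genes most like the summed level were also named. Members and lists were chosen with earlier results of these data known. Gene models were from GENCODE (GRCm38), promoters from RefSeq (GRCm38.p6, 62 members matched). Figures were drawn with matplotlib 3.10.9, and sums made with Python 3.11.15, numpy 2.4.6, scipy 1.17.1 and pandas 2.3.3.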

Additional observations from a re-analysis of the deposited data

Results flagged for a closer look

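The change between cycling and non-cycling cells differed between lineages for 15 pairs of gene and lineage. Each was called by an interaction test against the B lineage in 1 edgeR fit, at an adjusted p under 0.05. They were 2 of 55 members in monocytes, 8 of 50 in neutrophils and 5 of 55 in erythroid cells. Of all genes, 25.9%, 35.8% and 13.8% differed. Some members had large SEs, such as 7.75 for Hist1h2bf and 2.03 for Hist1h2bk in monocytes, and could hardly be called. The lower counts therefore do not set the members apart. The values are differences of the log2 change, negative where the change was smaller than in the B lineage. In monocytes they were −1.55 for Hist2h2be (SE 0.40, adjusted p = 0.0057) and −0.932 for Hist1h2ap. Hist2h2be had risen in cycling B lineage cells and was not called in monocytes.

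In neutrophils they were −4.25 for Hist1h2br, −2.92 for Hist1h2bc, −2.2 for Hist1h1a (SE 0.54, adjusted p = 0.00437), −2.11 for Hist1h4i (SE 0.46, adjusted p = 0.00173), −1.38 for Hist2h2aa1, −1.18 for Hist1h2be, −0.979 for Hist1h2ap and 1.09 for Hist1h1d. Hist1h1d was the only member of the 15 with a larger change than in the B lineage. Hist1h2br rested on 26 UMIs in neutrophils.

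In erythroid cells they were −2.42 for Hist1h2bn, −1.72 for Hist1h1b, −1.67 for Hist1h2bc, −1.63 for Hist1h2ap and −1.11 for Hist1h1e (SE 0.27, adjusted p = 0.00674). The S phase and G2/M makeup and the depth of cycling cells differ between these lineages, with a median of 3814, 6003, 2804 and 4342 UMIs per cycling B lineage cell and 7143, 9771, 5816 and 8135 per cycling neutrophil lineage cell. Their part in these differences was not tested.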

How the results depend on the processing

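Of 107 values of named genes, 1098 alternatives were run, of which 938 kept direction and call, 150 lost the call and 10 turned the direction. On cells reduced to 2000 UMIs, the S-rich difference turned to 0.066 for Hist1h3f, 0.27 for Hist1h2ae, 0.30 for Hist1h1b and 0.39 for Hist1h2ap (then called, adjusted p = 0.00831), and the cycling change of Hist3h2a in B lineage cells to 0.60. Without TMM, the difference between non-cycling neutrophils and B lineage cells turned to −0.15 for Hist1h2be, −0.31 for Hist1h2ap, −0.56 for Hist1h1c, −0.75 for Hist1h4d and −1.03 for Hist1h1e. The cause was not tested.

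Shares of all genes called are not given for the alternatives in this paragraph, so a larger count does not set the members apart. Counts of members called between genotypes are given in the order all cells, cycling B lineage, non-cycling B lineage, cycling monocytes, non-cycling monocytes, cycling neutrophils, non-cycling neutrophils, erythroid cells and GMPs, where they were 2, 4, 1, 1, 0, 2, 1, 1 and 2. Without a filter on low counts they were 12, 14, 12, 0, 5, 7, 9, 12 and 14. With cells reduced to 2000 UMIs they were 1 over all cells and 0 in non-cycling B lineage cells, cycling monocytes, both neutrophil states and GMPs. DESeq2 gave 16 over all cells, 4 in cycling monocytes, 0 in cycling neutrophils, 5 in erythroid cells and 4 in GMPs. Without TMM the count was 0 in non-cycling neutrophils and 5 in erythroid cells, and with filterByExpr 0 in non-cycling neutrophils. Without the 5% of cells with most UMIs it was 2 in cycling monocytes and 0 in erythroid cells and GMPs. Leaving out 1 library gave ranges of 1 to 4, 2 to 7, 0 to 14, 0 to 11, 0 to 3, 1 to 6, 0 to 9, 0 to 9 and 1 to 3.

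With the library number as a block the counts were 25, 15, 3, 6, 5, 9, 6, 11 and 17. The study's methods describe experiments that paired a mouse of each genotype, but neither they nor the labels say that the number marks the experiment. Same-numbered libraries deviated together, with a positive correlation in each of the 9 comparisons (0.0827 to 0.609, 2 pairs).

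Higher in S-rich cells were 2 members in the B lineage (DESeq2 0, no TMM 1, reduced cells 5, leaving out 1 library 0 to 3), 2 in monocytes (DESeq2 1, leaving out 1 library 1 to 3) and 0 in erythroid cells (no TMM 2, without the cells with most UMIs 2, leaving out 1 library 0 to 0). Between non-cycling neutrophils and B lineage cells 16 were called (no TMM 33, reduced cells 5, leaving out 1 library 12 to 14). Higher in cycling cells were 51 in monocytes (filterByExpr 32), 41 in neutrophils (filterByExpr 26, reduced cells 22) and 16 in erythroid cells (DESeq2 9, leaving out 1 library 9 to 15). For the alternatives in this paragraph, neither the share of all genes called nor the number of members tested is given. An alternative that tests fewer members can give a lower count for that reason alone, so these counts do not set the members apart. The summed level in cycling cells differed by −0.33 in the B lineage and −0.39 in erythroid cells, and by −0.24 and −0.19 on reduced cells. Members with few UMIs in a state, many of them in non-cycling cells, cannot be ranked at this depth.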

Other observations

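Megakaryocytes had high histone levels outside the cycle, although they were too few for a test or for the order of classes given above. The 44 non-cycling cells of this class had 1591, 1659, 3738 and 1679 CPM of histone genes in TLR9-/- 1, TLR9-/- 2, WT 1 and WT 2. Most of these UMIs fell on few genes. Hist1h4i had 144 (37.2%), the linker gene Hist1h1c 84 (21.7%), Hist1h2bc 48 (12.4%) and Hist1h4h 29 (7.49%), while Hist1h2ap, the most abundant member over all cells, had 9. At the other end by CPM were non-cycling plasma cells with 124, 74.2, 143 and 231, from 42, 17, 27 and 16 cells. Their median depth was 7751, 17508, 6587 and 11557 UMIs. This place did not hold per cell as counted. In TLR9-/- 1 and WT 1, 64.3% and 59.3% of them held a histone UMI, against 34.7% and 38.6% of non-cycling T cells. On reduced cells the shares were 42.5% and 25% against 32.7% and 42.6%, so the direction differed between these libraries. The other libraries had too few plasma cells for this.

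Outside the members, the genes whose level followed the summed histone level most closely over 40 sums of 10 classes and 4 libraries were Lockd (r = 0.870), Calm3 (0.858), Top2a (0.843), Kif11 (0.826) and Cmc2 (0.803). Sums of the same library share its depth, and Top2a is itself 1 of the genes by which cycling cells were called.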
